A study of Mus musculus with 12 samples.

Results

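RNA from dissected mouse striatum was read for 10 genes that mark neighbouring tissue. Ttr, Kl, Folr1, Clic6 and Otx2 mark the choroid plexus, Prkcd, Tcf7l2, Slc17a6 and Lef1 the thalamus, and Slc17a7 the cortex. They were taken as the rows of the deposited array table whose only platform gene symbol is one of these names, and all 10 were found, with 1 probe set each, among 19938 genes in all. The 12 arrays hold striatum of male mice aged 90 days, 3 arrays in each of 4 genotype groups. All mice carry a knock-in of Hdh (Htt, the Huntington's disease gene) on both chromosomes, either Q20, the short control allele, or Q111, the expanded allele. Each of these was combined with both copies of Grm5, which encodes the glutamate receptor mGluR5, or with neither. The groups are HdhQ20/Q20 mGluR5+/+, HdhQ20/Q20 mGluR5-/-, HdhQ111/Q111 mGluR5+/+ and HdhQ111/Q111 mGluR5-/-, called below Q20 or Q111 mice with or without mGluR5. The genetic background is given as 129 * CD-1 * C57BL/6 * FV. No group with an unmodified Hdh gene was analysed here, and the loss of mGluR5 is not limited to a cell type by the labels. Whether the 3 arrays of a group are separate animals is not said, so the p-values reflect differences among these samples that may be technical in part.

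The striatum borders the lateral ventricle, where the choroid plexus secretes cerebrospinal fluid, and lies close to the septum, the thalamus and the overlying cortex. Its own neurons are nearly all GABAergic, so genes of glutamatergic projection neurons are low in their cell bodies. Ttr encodes transthyretin, the thyroxine carrier that choroid plexus epithelium makes in very large amounts. Thalamic relay neurons load synaptic vesicles with the glutamate transporter VGLUT2, encoded by Slc17a6, and cortical projection neurons mostly with VGLUT1, encoded by Slc17a7. Such genes are commonly read to see how much neighbouring tissue a dissected sample holds.

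The paired vesicular glutamate transporters, 1 read for thalamus and 1 for cortex, were among the genes that varied most between arrays of a group. Both lie on chromosome 7, as Folr1 and the targeted Grm5 do, and whether linkage to the targeted locus touches their values was not tested. The 250 bases before the annotated gene start are shown for both, from RefSeq on GRCm38.p6, plus strand, chr7:51621580-51621829 for Slc17a6 and chr7:45163671-45163920 for Slc17a7. They are printed in lower case because neither holds the letters searched for.
Slc17a6: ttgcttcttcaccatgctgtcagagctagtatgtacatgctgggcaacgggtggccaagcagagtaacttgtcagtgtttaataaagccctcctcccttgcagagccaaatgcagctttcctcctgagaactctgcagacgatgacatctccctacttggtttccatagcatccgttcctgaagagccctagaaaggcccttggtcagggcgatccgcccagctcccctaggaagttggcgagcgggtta
Slc17a7: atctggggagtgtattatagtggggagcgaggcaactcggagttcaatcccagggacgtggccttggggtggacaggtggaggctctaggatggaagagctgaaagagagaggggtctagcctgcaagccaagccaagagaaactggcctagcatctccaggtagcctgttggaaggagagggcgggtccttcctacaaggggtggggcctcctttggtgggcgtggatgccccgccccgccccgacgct
The GC content was 53.2% in the Slc17a6 window and 61.2% in the Slc17a7 window, against a median of 52.4% over 32851 RefSeq promoters. The letters searched on both strands were TAATCC, the core bound by OTX2, and CTTTGA, the core bound by TCF and LEF proteins such as Tcf7l2 and Lef1. RefSeq windows were found for 7 of the 10 genes, 16 windows in all, and TAATCC was in 2 of them, before 1 start each of Otx2 and Tcf7l2. CTTTGA was also in 2, before 1 start each of Prkcd and Lef1. Of all 32851 promoters 6.25% hold TAATCC and 13.8% CTTTGA. A match of letters is a description and not a binding site.

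The values are log2 signals of the RMA method, in which a difference of 1 is a doubling. Array medians ranged from 7.05 to 7.16 and the 25th percentiles, below which a probe set was taken as not told from background, from 5.69 to 5.94. Interquartile ranges differed between arrays, from 2.56 to 2.95. Grm5 averaged 12.00 and 11.94 in Q20 and Q111 mice with mGluR5 against 11.06 and 11.07 without it. Its fall passed the limma test in both (adjusted p = 0.000189 and 0.00017), in the direction that the labels of receptor genotype state. Markers of striatal projection neurons were high on all 12 arrays, with a mean over 18 genes of 11.11 to 11.32. Replicate 1 of the Q20 mice with mGluR5 gave the highest value of 4 of the 10 genes, more than any other array. Of the 27 differences of the 9 tested genes that use this array, 5 changed sign when it was left out, and the values it moves are given beside them.

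Among the choroid plexus genes, Ttr stood apart from the other 4 by the width of its values. In Q20 mice with mGluR5 the Ttr level was 8.54, 6.80 and 6.47 log2 units in replicates 1, 2 and 3. In Q20 mice without mGluR5 it was 7.25, 9.28 and 7.92. In Q111 mice it was 6.5, 6.37 and 7.65 with mGluR5, and 7.16, 6.51 and 6.30 without. The highest array therefore came from a Q20 mouse sample without mGluR5 and the lowest from a Q111 sample without it, a span of 2.98 log2 units or 7.88-fold. The 4 highest arrays came from 3 of the 4 groups, and only between the groups without mGluR5 did the Q20 and Q111 values not overlap. Group means were 7.27 ± 1.11 (SD, n = 3) and 8.15 ± 1.04 in Q20 mice with and without mGluR5, and 6.84 ± 0.70 and 6.66 ± 0.45 in Q111 mice. In bulk tissue, fewer cells of a type and less RNA per cell cannot be told apart.

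Clic6 encodes an intracellular chloride channel protein that is abundant in choroid plexus epithelium. Its level was 6.85, 7.39 and 6.88 in Q20 mice with mGluR5 and 6.86, 7.11 and 6.96 without. In Q111 mice it was 6.69, 7.18 and 6.41 with mGluR5 and 6.67, 6.80 and 6.60 without. Replicate 2 was the highest Clic6 array in all 4 groups, although the groups themselves lay close together. The Clic6 level did not follow that of Ttr (Pearson r = 0.10 over the 12 arrays, permutation p = 0.758).

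The other 3 choroid plexus genes had narrower ranges than Ttr and Clic6. Kl encodes klotho, a co-receptor for fibroblast growth factor 23, and its level lay between 5.98 and 6.44. Folr1 encodes the folate receptor that carries folate into cerebrospinal fluid, and its level lay between 5.96 and 6.64, the highest array being replicate 3 of the Q111 mice with mGluR5. Otx2, a homeodomain transcription factor of the choroid plexus, lay between 5.21 and 5.63, at or below the 25th percentile on all 12 arrays. It was the only gene of the 10 that did not pass the filter and was not tested. The array with the most Ttr also had the most Kl (6.44), while its Folr1 was 6.21 and its Otx2 5.48, both inside the range of the other arrays.

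**Figure D1:**
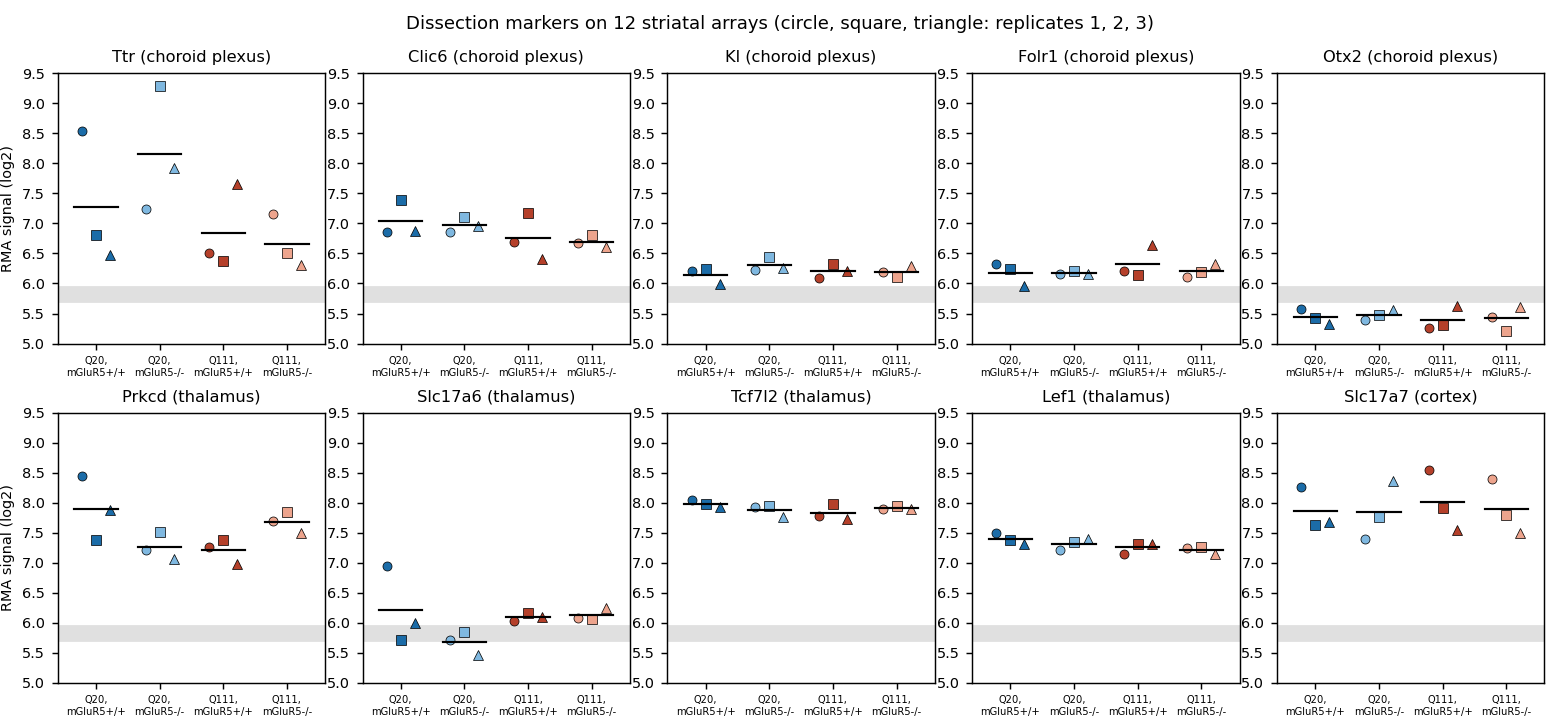
RMA signal (log2, vertical axis) of each of the 10 genes on the 12 arrays, by genotype group; circles, squares and triangles are replicates 1, 2 and 3, horizontal bars are group means, and the grey band is the range of the arrays' 25th percentiles (5.69 to 5.94). Ttr spans 2.98 log2 units, Prkcd and Slc17a6 each 1.48, Slc17a7 1.15, and Otx2 lies below the grey band on every array.

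Among the thalamic genes, Prkcd and Slc17a6 varied widely and Tcf7l2 and Lef1 did not. Prkcd encodes protein kinase C delta, a kinase of thalamic relay neurons. The Prkcd level was 8.45, 7.37 and 7.88 in Q20 mice with mGluR5, and 7.21, 7.51 and 7.06 in Q20 mice without it. It was 7.26, 7.38 and 6.97 in Q111 mice with mGluR5, and 7.70, 7.84 and 7.50 in Q111 mice without it. The pattern of group means was crossed, with 7.90 ± 0.54 (SD, n = 3) and 7.26 ± 0.23 in Q20 mice with and without mGluR5, but 7.20 ± 0.21 and 7.68 ± 0.17 in Q111 mice. The Q111 groups did not overlap, whereas the Q20 groups did, through replicate 2 of the mice with mGluR5.

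Slc17a6 was dim, with 9 of 12 arrays above their 25th percentile. Its level was 6.94, 5.72 and 6.00 in Q20 mice with mGluR5 and 5.72, 5.85 and 5.46 in Q20 mice without it. In Q111 mice it was 6.03, 6.16 and 6.10 with mGluR5 and 6.08, 6.07 and 6.25 without. In Q20 mice with mGluR5, replicate 1 was 0.70 above the next array of any group, and it alone gave 56.2% of the sum of squares within groups. The Q20 mice without mGluR5 were below all 6 Q111 arrays. Since these values are close to the background level, differences from them have no exact size.

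Tcf7l2 and Lef1 encode transcription factors that bind DNA for beta-catenin in Wnt signalling. Both are kept on in adult thalamic neurons, and elsewhere in the brain Tcf7l2 is made by maturing oligodendrocytes and Lef1 by endothelium. Tcf7l2 lay between 7.72 and 8.04 and Lef1 between 7.14 and 7.49, and for both the highest array was again replicate 1 of the Q20 mice with mGluR5. The gap to the next array was 0.07 for Tcf7l2 and 0.10 for Lef1, against 0.57 for Prkcd. All 4 thalamic genes thus had the same highest array, and they differed in how far it stood from the rest.

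The cortical gene Slc17a7 differed between the arrays of every group. Its level was 8.26, 7.64 and 7.68 in Q20 mice with mGluR5 and 7.39, 7.77 and 8.35 without. In Q111 mice it was 8.54, 7.91 and 7.55 with mGluR5 and 8.39, 7.80 and 7.49 without. In each group 1 array lay at 8.26 to 8.54 and the other 2 at 7.39 to 7.91, and the 4 group means lay within 7.84 and 8.0. Only 2.91% of the sum of squares of Slc17a7 lay between groups, against a median of 25.5% over all tested genes.

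The spread within groups was set against that of the 16721 genes tested, as a description. The median SD within groups was 0.14 log2 units over all tested genes and the 90th percentile 0.22. Ttr had an SD of 0.87, and 2 of the 16721 genes had a wider one, the small RNAs Snord104 and Rnu3a, which were looked up after this count was seen. Slc17a7 followed with 0.45 (27 tested genes wider), Slc17a6 with 0.34 (112 wider), Prkcd with 0.32 (172 wider) and Clic6 with 0.26 (713 wider). In all, 5 of the 9 tested genes lay above the 90th percentile and 3 above the 99th. Folr1 (0.18) lay above the median, and Kl (0.12), Tcf7l2 (0.09) and Lef1 (0.09) lay below it. Choroid plexus and thalamus were thus each read by genes of wide and of narrow spread. With replicate 1 of Q20 mice having mGluR5 left out, 4 of the 9 lay above the 90th percentile, Slc17a6 no longer being among them. Clic6 fell below it when replicate 2 of either group with mGluR5 was left out. Ttr had 1 to 3 tested genes wider than itself whichever array was left out.

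**Figure D2:**
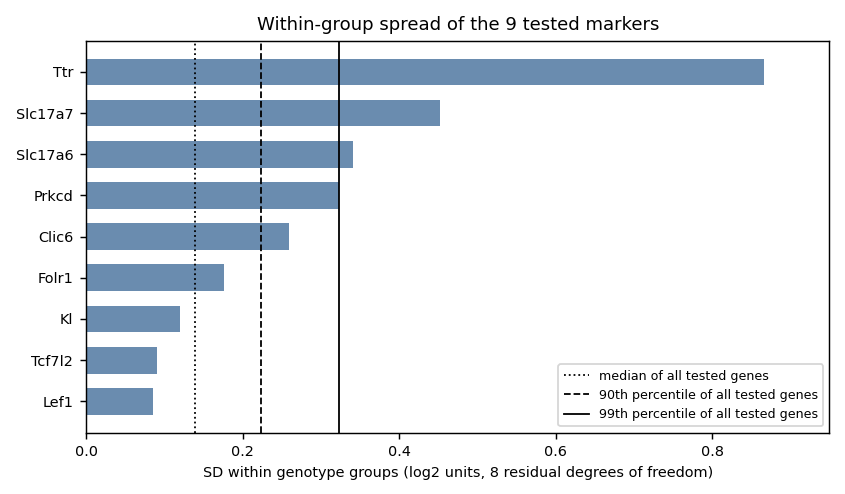
SD within genotype groups (log2 units, horizontal axis) of the 9 tested genes, from 12 arrays and 4 group means; vertical lines are the median (0.14), 90th percentile (0.22) and 99th percentile (0.32) over all tested genes. Ttr at 0.87 is far to the right, Slc17a7 at 0.45 and Slc17a6 at 0.34 also pass the 99th percentile, and Tcf7l2 and Lef1 lie left of the median.

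Q111 and Q20 mice were first compared with the receptor present. None of the 9 tested genes passed the limma test at an adjusted p of 0.05, where 0.574% of all tested genes did. The median difference was -0.14 over the 9 genes and -0.01 over all tested genes, with 3 positive and 6 negative. Prkcd, 1.62-fold lower in Q111 mice (-0.70 ± 0.21 log2 units, SE), was the only one with an unadjusted p below 0.05 (adjusted p = 0.254 by limma). The Prkcd difference was -0.42 when replicate 1 of Q20 mice having mGluR5 was left out (adjusted p = 0.569) and -0.96 without replicate 2 of that group, where it passed (adjusted p = 0.0444). With that replicate 2 left out 47 of all 16721 tested genes passed. The other 3 thalamic genes had fitted differences from -0.16 to -0.13, that of Slc17a6 having no exact size. When replicate 1 of the Q20 group was left out, that of Slc17a6 became 0.24 and the thalamic genes with a negative difference were 3 of 4. Ttr differed by -0.43, which became 0.21 without that array. No gene of the 9 had groups that did not overlap, against 9.69% of all tested genes.

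In mice without mGluR5 the same comparison passed for none of the 9 genes, against 0.885% of all tested. Ttr was 2.81-fold lower in Q111 mice (-1.49 ± 0.52, SE, limma adjusted p = 0.316), the only one with an unadjusted p below 0.05, with a 95% interval from -2.61 to -0.37. Without the Q20 array at 9.28 the Ttr difference was -0.93 (adjusted p = 0.891). Groups did not overlap for 3 of the 9 genes, Ttr and Clic6 (-0.28 ± 0.17), lower in Q111, and Slc17a6, higher, against 19.1% of all tested genes. For Slc17a6 1 of the 3 Q20 arrays was above its 25th percentile and all 3 Q111 arrays were, so no size is given. Prkcd was 0.42 ± 0.21 higher and overlapped. Kl and Folr1, the other tested choroid plexus genes, differed by -0.11 ± 0.10 and 0.03 ± 0.13. Averaged over both receptor genotypes, none of the 9 passed for the Q111 allele, where 1.32% of all tested genes did. Ttr (-0.96 ± 0.37, adjusted p = 0.323) and Clic6 (-0.28 ± 0.12, adjusted p = 0.393) had unadjusted p below 0.05 there. The averaged Clic6 difference was -0.13 with the interquartile range of each array in the model, and it passed when replicate 2 of Q111 mice having mGluR5 was left out (-0.39, limma adjusted p = 0.0495). With that array left out 511 of all 16721 tested genes passed, against 221 on all arrays.

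Loss of mGluR5 in Q20 mice, the effect of the receptor on a control striatum, passed for none of the 9 genes and for 0.299% of all tested. Prkcd was 1.56-fold lower without the receptor (-0.64 ± 0.21, SE, limma adjusted p = 0.448) and Slc17a6 was also lower (adjusted p = 0.702), and both had an unadjusted p below 0.05. Slc17a6 was above the 25th percentile on 2 of 3 arrays with the receptor and 1 of 3 without, so its difference has no exact size. The Prkcd difference was -0.36 when replicate 1 of Q20 mice having mGluR5 was left out, and the fitted difference of Slc17a6 went from -0.55 to -0.18. Ttr was 0.88 ± 0.52 higher without the receptor, with a 95% interval from -0.24 to 2.0 that spans a small fall and a large rise. With 1 array left out in turn it ranged from 0.32, without the array at 9.28, to 1.52, without the array at 8.54. No gene of the 9 had groups that did not overlap, against 12.8% of all tested genes.

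In Q111 mice, loss of mGluR5 passed for none of the 9 genes and for 0.275% of all tested. Prkcd was 1.39-fold higher without the receptor (0.47 ± 0.21, SE, limma adjusted p = 0.9999), the only one with an unadjusted p below 0.05. It was also the only gene of the 9 whose groups did not overlap, against 7.46% of all tested genes. Averaged over both alleles, loss of the receptor passed for none of the 9 and for 0.293% of all tested, and no gene of the 9 had an unadjusted p below 0.05. The comparisons of each allele and receptor state share groups, so their values are given side by side and were not set against each other.

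The interaction, which asks whether the effect of receptor loss differs between Q111 and Q20 mice, passed for none of the 9 genes and for 0.437% of all tested. Prkcd had the smallest adjusted p (difference 1.11 ± 0.29, SE, adjusted p = 0.236 by limma) and the only unadjusted p below 0.05, with a 95% interval from 0.49 to 1.74. The Prkcd interaction was 0.84 when replicate 1 of Q20 mice having mGluR5 was left out (adjusted p = 0.381) and 1.38 without replicate 2 of that group, where it passed (adjusted p = 0.0316). With that replicate 2 left out 44 of all 16721 tested genes passed. The fitted interaction was 0.58 ± 0.31 for Slc17a6, 0.19 ± 0.13 for Tcf7l2 and 0.04 ± 0.13 for Lef1. Without replicate 1 of Q20 mice having mGluR5 these became 0.22, 0.16 and -0.01. The values of Slc17a6 have no exact size, since its Q20 arrays are read close to background. Among the choroid plexus genes the interaction was -1.06 ± 0.74 for Ttr, ranging from -1.70 to -0.50 with 1 array left out in turn. For Clic6 it was -0.01 ± 0.24 and changed sign in 6 of the 12 cases. In a test of any difference among the 4 groups, 1.48% of all tested genes and none of the 9 passed, Prkcd again having the smallest adjusted p (0.275 by limma) and the only unadjusted p below 0.05.

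The intervals say how large a difference the arrays left possible. For Lef1 and Tcf7l2 the 95% intervals of the 4 differences between groups stayed within -0.36 and 0.28 log2 units. For Slc17a7 they reached from -0.71 to 0.75 and for Ttr from -2.61 to 2.0, so that a p above the threshold for these genes does not show equal levels.

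**Figure D3:**
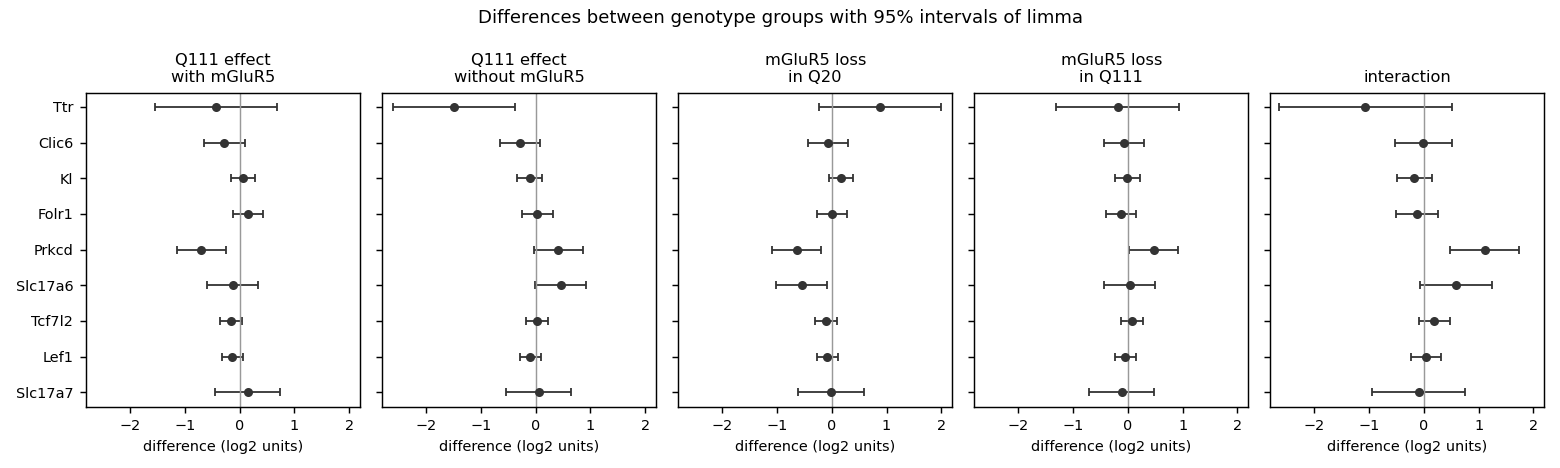
Differences between groups (log2 units, horizontal axes) of the 9 tested genes in 4 comparisons and the interaction; points are limma estimates from 12 arrays and bars their 95% intervals. Ttr has the widest intervals, and Prkcd lies left of 0 for the Q111 effect with mGluR5 (-0.70), right of 0 without it (0.42), and at 1.11 in the interaction.

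Relations among the 9 genes over the arrays were tested in pairs. Of the 36 pairs among the 9 tested genes, 0 had an adjusted permutation p below 0.05 for Pearson's r or for Spearman's rho, and 3 had an unadjusted p of r below 0.05. These were Prkcd with Slc17a6 (r = 0.74), Prkcd with Tcf7l2 (r = 0.72) and Ttr with Lef1 (r = 0.61). With replicate 1 of Q20 mice having mGluR5 left out, r was 0.39, 0.63 and 0.48, and with group means removed 0.83, 0.56 and 0.67. All 6 thalamic pairs had a positive r (0.20 to 0.74), and 4 of the 6 did with that replicate 1 left out (-0.57 to 0.63). The choroid plexus pairs ranged from -0.47 (Folr1 with Clic6) to 0.51 (Ttr with Kl), and Ttr with Kl was 0.20 without the 2 arrays of highest Ttr.

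Ttr, Prkcd, Slc17a6 and Slc17a7 were then set against other markers of their tissues, 51 relations in all. Two-sided permutation p-values were adjusted over these 51 by the Benjamini-Hochberg method. Clic6, which also varied widely, was not among the 51 and is described without a test. Folr1, Kl, Tcf7l2 and Lef1 were not among the 51 either. Of 13 other choroid plexus markers, 2 had a positive r with Clic6 and 0 were above 0.5, against 31.4% of all tested genes. The median r was -0.45 over the 13 (-0.62 with group means removed) and 0.21 over all tested genes. Folr1, also without a test, was positive with 12 of these 13, and 4 were above 0.5, against 9.98% of all tested genes. Its median r was 0.38 over the 13 and -0.11 over all tested genes, and the highest was with Kcnj13 (0.72). Without the 2 arrays farthest from the median of Folr1 1 of the 13 was above 0.5, against 1170 of 16720 tested genes. Folr1 had an r above 0.5 with 5 of 9 ependymal markers as well. Prkcd varied with Plekhg1, a gene enriched in thalamus (Pearson r = 0.87, permutation p = 0.00024, adjusted p = 0.0122; Spearman rho = 0.85, permutation p = 0.00084, adjusted p = 0.0428). This relation was 0.80 without the 2 arrays farthest from the median of Prkcd and 0.87 with the group means removed. Plekhg1 was highest, at 8.14, in the array where Prkcd was highest, and next in replicates 2 and 1 of the Q111 mice without mGluR5 (7.97 and 7.94). Prkcd also followed Rgs16, a regulator of G protein signalling (r = 0.84, permutation p = 0.00051, adjusted p = 0.0130; rho = 0.82, permutation p = 0.00204, adjusted p = 0.0520), with 0.72 without the 2 farthest arrays. The relations of Prkcd with Ramp3 (r = 0.76) and Ntng1 (r = 0.74) did not pass (adjusted permutation p = 0.0639 and 0.0637). Both were under 0.5 without the 2 farthest arrays, and 0.84 and 0.78 with group means removed. Of 12 thalamic markers, 4 had an r above 0.5 with Prkcd on all arrays, against 3.15% of all tested genes. Positive were 11 of the 12, against 8130 of 16720 tested genes. Without the 2 arrays farthest from the median of Prkcd 3 of 12 were above 0.5, against 5.20%. The median r over the 12 went from 0.38 to 0.17. Slc17a6 was positive with 12 of 12, against 7399 of 16720 tested genes, and 5 were above 0.5, against 3.52%. Without the 2 arrays farthest from the median of Slc17a6 2 of 12 were above 0.5, against 8.50%. Slc17a6 with Plekhg1 had r = 0.74 (permutation p = 0.00388, adjusted p = 0.0495), with rho = 0.63 (permutation p = 0.0322, adjusted p = 0.208). This r fell to 0.37 without the 2 farthest arrays. It was 0.60 when only replicate 1 of Q20 mice having mGluR5 was left out, and 0.71 with group means removed.

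Of the 14 cortical markers, Neurod6, a transcription factor gene of cortical projection neurons, had the highest r with Slc17a7 (0.79). Neurod6 was above the 25th percentile on 3 of 12 arrays, the fewest that the filter admits, so this r is given as a description with no test. Neurod6 was at 5.99 to 6.21 on those 3, which are the arrays of highest Slc17a7, and at 5.15 to 5.68 on the other 9. The array next in Slc17a7, replicate 1 of the Q20 mice having mGluR5 at 8.26, had Neurod6 at 5.54, below its 25th percentile. Tbr1, a factor of deep-layer cortical neurons, had r = 0.68 with Slc17a7 and did not pass (permutation p = 0.0153, adjusted p = 0.0779; rho = 0.71, permutation p = 0.0117, adjusted p = 0.119). The other 12 cortical markers had r between -0.35 and 0.45, with Neurod2 the lowest.

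Ttr did not pass with any of the 13 other choroid plexus markers tested. The highest r were with Kcnj13, a potassium channel of the plexus epithelium (r = 0.70, permutation p = 0.0113, adjusted p = 0.0722; rho = 0.69, permutation p = 0.0169, adjusted p = 0.143), and with Sostdc1, a secreted inhibitor of Wnt and bone morphogenetic protein signalling (r = 0.68, permutation p = 0.0142, adjusted p = 0.0779; rho = 0.73, permutation p = 0.00881, adjusted p = 0.112). Without the 2 arrays of highest Ttr these were 0.72 and 0.41, and Aqp1 (0.71), Trpv4 (0.63) and F5 (0.62) were also above 0.5. The markers above 0.5 were thus 2 of 13 on all arrays, against 4.39% of all tested genes, and 4 of 13 without those 2 arrays, against 8.63%. Endothelial markers moved with Ttr as well, 7 of 9 with an r above 0.5, led by Cdh5 (r = 0.79). Without the 2 arrays of highest Ttr 6 of these 9 were above 0.5, against 8.63% of all tested genes. With group means removed 2 of the 9 endothelial and 2 of the 13 choroid plexus markers were above 0.5, against 5.26% of all. The mean of the 9 endothelial markers was 8.03 to 8.29 in the Q20 arrays and 7.87 to 8.08 in the Q111 arrays, and their part in the Ttr differences was not tested. The Kcnj13 level was 6.67 in replicate 3 of the Q111 mice with mGluR5, its highest array, where Ttr was 7.65.

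Among the 9 genes, Clic6 was most closely related to a feature of the whole array. Its level was higher in arrays with a wider interquartile range of the array (Pearson r = 0.87, permutation p = 0.00038, adjusted p = 0.00342 over the 9 tested genes; Spearman rho = 0.82, permutation p = 0.00167, adjusted p = 0.0150), and r was 0.81 without the 2 arrays whose range was farthest from the median. Such relations were common, since 35% of all tested genes had an r above 0.5 with this range and 564 had a higher r than Clic6. None of the other 8 passed, Tcf7l2 coming next (r = 0.66, permutation p = 0.0201, adjusted p = 0.0907; rho = 0.64, permutation p = 0.0290, adjusted p = 0.131). For Ttr, Prkcd and Slc17a7 r with the range lay between -0.15 and 0.14. In every genotype group replicate 2 had both the widest range and the highest Clic6. Its range was 2.88 and 2.95 in Q20 mice with and without mGluR5, and 2.93 and 2.80 in Q111 mice. The relation of Clic6 to the range was therefore not separated from replicate number, which the permutation p-values do not take into account.

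**Figure D4:**
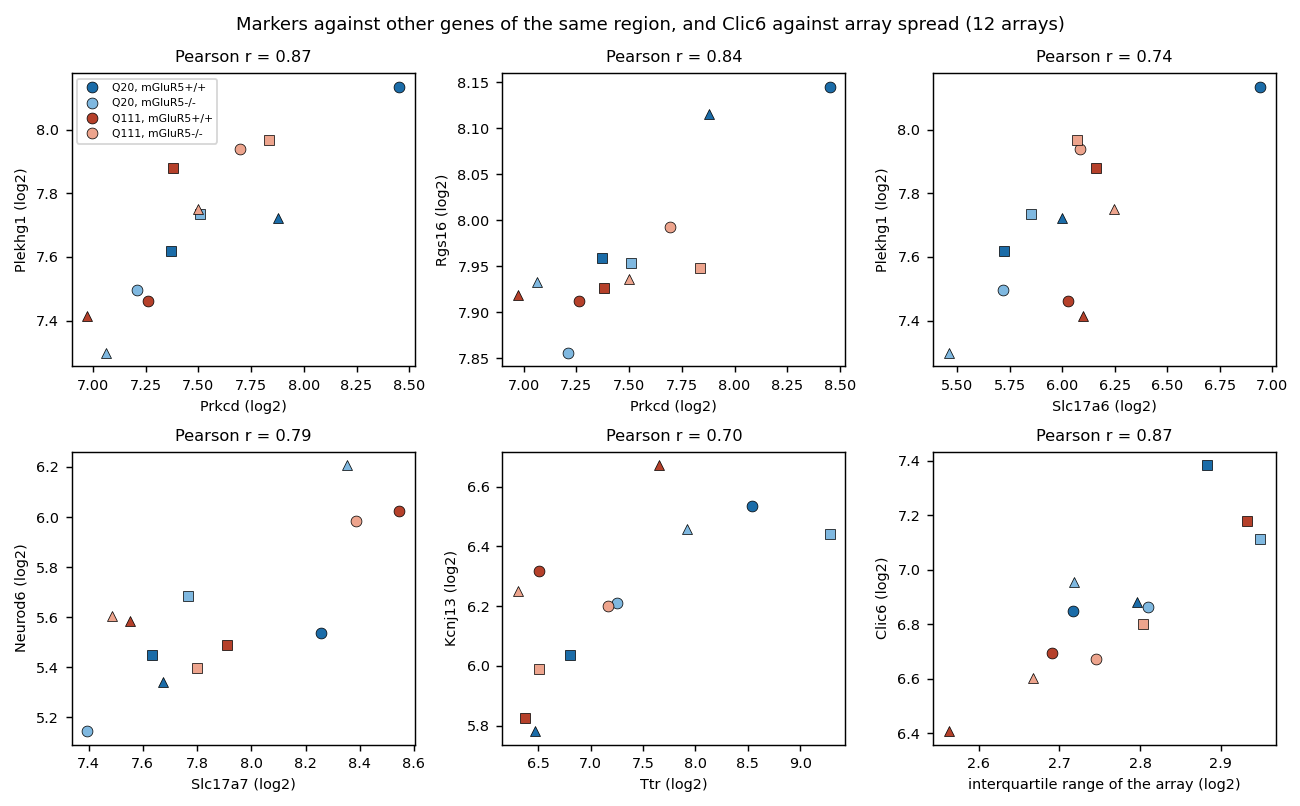
6 scatter plots over the 12 arrays (log2 signal on both axes, except the interquartile range of the array in the last), coloured by genotype group, with replicates 1, 2 and 3 as circles, squares and triangles. Prkcd and Plekhg1 lie along a line (r = 0.87), 3 arrays are high in both Slc17a7 and Neurod6 (r = 0.79), and Clic6 is higher in arrays of wider range (r = 0.87).

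The genes whose pattern over the 12 arrays was most like each marker were taken as the 5 tested genes of highest Pearson r, as a description. For Ttr the named ones were Ocln (r = 0.86), Eva1a (0.85), Fst (0.85) and Erbin (0.82), with Ocln at 0.87 without the 2 arrays of highest Ttr and the others at 0.55 to 0.58. Ocln encodes occludin, a tight junction protein. For Prkcd they were Megf11 (0.90), Rwdd3 (0.87) and Plekhg1 (0.87), below 2 small RNAs that had the highest r (0.92 for both). For Tcf7l2 they were Rnf25 (0.93), Fign (0.92), Galt (0.90), Cntnap5a (0.90) and Arhgef1 (0.90). For Slc17a7 they were Nwd2 (0.88), Malt1 (0.80), Mgat3 (0.80) and Neurod6 (0.79). Plekhg1 and Neurod6 were the only ones of these that belong to a marker list of the same tissue.

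The wider lists of neighbouring tissue were counted in the same 8 tests, in which 0.275% to 1.48% of all tested genes passed. Of 13 choroid plexus, 12 thalamic, 14 cortical and 5 hypothalamic markers tested beside the 9 genes, 0 passed in any of the 8 tests. Nor did any of 9 ependymal, 9 meningeal, 9 endothelial and 18 striatal markers, or Alas2, the 1 blood gene measured. Of 4 septal markers 1 passed, Trpc4, which encodes a cation channel of lateral septal neurons. The Trpc4 level was 7.93, 8.03 and 7.88 in Q20 mice with mGluR5 and 7.39, 7.60 and 7.21 in Q111 mice with it, a fall of 0.55 ± 0.11 log2 units (SE, limma adjusted p = 0.0327), and without mGluR5 the difference was -0.34 ± 0.11 (adjusted p = 0.238). Averaged over receptor genotypes the fall was 0.44 ± 0.08 (adjusted p = 0.00857). The call in mice with mGluR5 was lost without any 1 of 7 arrays, among them all 3 of the Q20 mice with mGluR5 (adjusted p = 0.0931 to 0.171), while the averaged call held without any 1 array. Of 7 hypothalamic peptide genes measured, Oxt, Avp and Trh were above the 25th percentile on all 12 arrays, with means of 7.13, 7.19 and 7.16. Hcrt lay at 5.37 to 5.83, above it on 1 array, and Pmch at 5.36 to 5.84, above it on 0. For thalamic markers other than the 4 genes, 9 of 12 differences were negative in the Q111 comparison with mGluR5 (median -0.07) and 9 of 12 in the loss of mGluR5 in Q20 mice (median -0.12). Of 9 endothelial markers 9 were negative in both Q111 comparisons (medians -0.17 with and -0.31 without mGluR5), and 13 of 14 cortical markers were in the one without mGluR5 (median -0.05). The medians over all tested genes were -0.01 and -0.02 in the Q111 comparisons with and without mGluR5, and 0.02 in the loss of mGluR5 in Q20 mice. The share of all tested genes with a negative difference is not given here. Replicate 1 of the Q20 mice with mGluR5 enters both the Q111 comparison with mGluR5 and the loss of mGluR5 in Q20 mice. It had the highest mean over 14 thalamic markers, 7.35 against 7.06 to 7.18 in the other 11 arrays. The same array was highest in 5 of the 10 lists beside the genes themselves, in some by a small margin. Beside thalamus these were septum (7.64, next array 7.61) and ependyma (6.96, next 6.85). The others were choroid plexus (6.640, next 6.638) and blood (7.01, next 6.92), the last read by 1 gene.

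The 3 markers of each list with the widest range over the 12 arrays were also compared. For thalamus they were Plekhg1, Ramp3 and Ntng1, with ranges of 0.84, 0.79 and 0.77 log2 units, all highest in replicate 1 of the Q20 mice with mGluR5. For cortex they were Neurod6 (1.06), Tbr1 (0.99) and Slc30a3 (0.79), each highest in a different array. For choroid plexus they were Kcnj13 (0.89), F5 (0.76) and Sostdc1 (0.75), all well under the 2.98 of Ttr. Endothelium had Cldn5 (0.97), Slco1c1 (0.67) and Itm2a (0.66), ependyma Dynlrb2 (0.66), Cfap126 (0.61) and Rarres2 (0.50), and meninges Col1a1 (0.84), Ogn (0.82) and Lum (0.80, below the 25th percentile throughout). Alas2 of blood ranged over 0.46. Septum had Trpc4 (0.90), Zic2 (0.80) and Zic5 (0.60), hypothalamus Oxt (0.97), Avp (0.81) and Pomc (0.62), and the striatum itself Pdyn (1.07), Isl1 (0.74) and Scn4b (0.69). The median range over all tested genes was 0.48 and over the 9 genes described here 0.98. Rgs16, Aqp1, Trpv4, Cdh5, Neurod2, Trh, Hcrt and Pmch are outside this rule and were singled out after their values were seen.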

How the data were processed

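Striatal RNA of 12 mouse samples was labelled with biotin as single-stranded cDNA and hybridised to Affymetrix whole-transcript arrays, per the labels' protocols. The authors deposited log2 signals made with RMA, which subtracts background, equalizes arrays by quantiles and summarizes each probe set. Partek and RMA are listed, versions not given, in the submitters' processing notes, and the series text gives Partek Genomics Suite 6.5. Precision is set by there being 3 arrays a group.

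Of 35556 probe sets, 21789 had 1 gene symbol, 1621 several and 12146 none in the platform annotation. Symbols were updated through RefSeq (91 sets unmatched), and each of 19938 genes was read by its probe set of highest mean. The 16721 genes above the 25th percentile of the array in at least 3 arrays were tested with limma 3.58.1 (R 4.3.3). The model had a mean for each of 4 groups, 8 residual degrees of freedom (prior 6.88) and two-sided Benjamini-Hochberg adjustment over all tested genes. Errors of differences are standard errors. The script was tested on simulated data. Correlations over the arrays used 100000 permutations.

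Named beside the 10 genes are, of the choroid plexus, thalamus, cortex, septum, hypothalamus, striatum, ependyma, meninges, endothelium and blood lists, the called members and the 3 of widest range, the 5 genes most like Ttr, Prkcd, Tcf7l2 and Slc17a7 (predicted genes, receptors of smell and small RNAs counted only), Grm5 and Htt. The averaged Htt difference between Q111 and Q20 was -0.15 ± 0.06 (SE, limma adjusted p = 0.344). The genes and lists were chosen with earlier results of these data known. Alternatives covered scaling, filter, probe set choice, model, call rule, block and leaving out arrays. Figures were drawn with matplotlib 3.10.9.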

Additional observations from a re-analysis of the deposited data

How the results depend on the processing

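Counts of the 9 tested genes that passed were recomputed under 23 settings, 12 of which leave out 1 array. Of 180 such counts 173 stayed at 0 and 7 became 1. By the submitters' criteria (an unadjusted ANOVA p under 0.05 with a 1.5-fold difference or more) the count was 1, Prkcd, in the Q111 effect with mGluR5, in the loss of mGluR5 in Q20 mice and in the interaction. Of all 16721 tested genes these criteria called 97 in the Q111 effect with mGluR5 and 66 in the loss in Q20 mice. In the test of any difference they called 183, none of the 9 among them. Leaving out 1 array gave counts from 0 to 1 in the Q111 effect with mGluR5, the interaction, the test of any difference (Prkcd in each, replicate 2 of Q20 mice having mGluR5 left out; limma adjusted p = 0.0446 in the last) and the average Q111 effect (Clic6), and 0 in the other comparisons. Under the replicate block, in which replicate number enters the model, the count was 0 in all 8 tests, while over all genes called ones went from 96 to 204 for Q111 with mGluR5, 148 to 343 without it, 50 to 129 and 46 to 103 for receptor loss in Q20 and Q111, 221 to 487 and 49 to 79 for the averages and 247 to 511 for any difference. With the interquartile range of the array as a covariate these were 266, 353, 213, 150, 488, 170 and 685, and 153 for the interaction (73 without the covariate). The unmoderated model called 19 to 123 genes in the 8 tests, and leaving out 1 array 25 to 511. The intensity trend and quantile normalization gave 84 and 76 for receptor loss in Q20. By the submitters' criteria 165 genes were called for the interaction, 51 and 17 for the averages, and the compared groups alone gave 47 for Q111 with mGluR5. The labels do not say that a number marks shared animals or days. Deviations of same-numbered arrays correlated above 0.1 in 11 of 18 pairs (-0.14 to 0.57), and 9 of 12 arrays correlated best with their own number, a hint from the data, so the numbers were not taken as pairs. Of 316 recomputed differences in 14 effects (those of the 9 genes with an unadjusted p below 0.05, and of Grm5, Htt and Trpc4), 0 changed sign, 6 gained the call and 13 lost it, all of the latter for Trpc4. Most of these effects were chosen by p in the same data, so a kept sign says little. Among effects not so chosen, leaving out 1 array turned the sign of the Clic6 interaction in 6 cases and of the Slc17a7 interaction in 4. The number of genes with a spread above the 90th percentile was 5 under median centring and quantile normalization and 4 to 5 with 1 array left out. No pair of the 9 genes passed under either scaling, with group means removed, or without the 2 arrays farthest from the median. The number of arrays limits what can be seen, and Slc17a6, above the 25th percentile on 9 of 12 arrays, Kl and Folr1 are read close to background.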
